A study of Homo sapiens with 9 samples.

Results

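Transcripts of 89 chaperone genes were followed in EGI-1, a human cell line established from cholangiocarcinoma, a cancer of the bile ducts, after induction of a hairpin against FOSL1 or against GFP. The genes were all protein-coding genes whose symbols start with HSPA, HSPB, HSPD, HSPE, HSPH, HSP90A, DNAJA, DNAJB or DNAJC, together with BAG1 to BAG6, TCP1, those starting with CCT2 to CCT8, and the heat shock factors HSF1 and HSF2. HSPA5, HSPBP1, DNAJB9, DNAJB11 and DNAJC3 were left out. These 89 were taken by name from 58381 genes in the deposited counts, under a naming rule written with earlier results of these data known. Where 2 identifiers carry the name HSPA14, 1 was used. Of the 89, 79 had at least 1 count, 10 had none in any library, and 67 passed the expression filter and were tested, among 12814 genes tested in all. The choice by symbol reaches beyond the cytosol: HSPD1, HSPE1, HSPA9, DNAJA3, DNAJC11, DNAJC15, DNAJC19 and DNAJC30 encode mitochondrial proteins, and HSPA13, DNAJB12, DNAJB14, DNAJC1 and DNAJC10 encode proteins of the endoplasmic reticulum. HSPBAP1, HSPB11 (now named IFT25) and 3 readthrough genes carry the names without being known as chaperones.

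The 3 groups were GFPsh, FOSL1sh3 and FOSL1sh10, each with 3 libraries. All of them carried a tetracycline-inducible hairpin, all received doxycycline at 2 ug/ml for 4 days, and all were harvested 24 hours after seeding. The controls therefore also had doxycycline and an induced hairpin. FOSL1 encodes FRA-1, a member of the AP-1 family of transcription factors. The labels do not say whether the 3 libraries of a group came from separate cultures or whether a hairpin line was 1 clone, and the p-values speak to the spread among the 9 libraries alone, which may be technical. In bulk RNA, fewer cells of a type and less RNA per cell cannot be told apart.

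As background, heat shock proteins are chaperones that keep other proteins folded or fold them anew. HSP70 proteins bind stretches of unfolded chain in a cycle driven by ATP. J-domain proteins (the DNAJA, DNAJB and DNAJC families) bring substrates to HSP70 and speed its ATP use, while HSP110 proteins and most BAG proteins release its nucleotide. HSP90 proteins act later on signalling proteins, small heat shock proteins hold unfolded protein without ATP, and the ring-shaped complex TRiC (also called CCT), built of the subunits TCP1 and CCT2 to CCT8, folds actin, tubulin and other cytosolic proteins. HSF1 is the main factor that switches on many of these genes under heat or protein stress, by binding inverted repeats of the unit GAA in their promoters. These genes run at a high level in many cancer lines without any heat.

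The promoters of the measured chaperones carry that repeat to different extents, and examples are shown because members with and without it are compared below: all 7 genes with 3 or more units, and HSPB1 and TCP1, 2 called members with 2 units. RefSeq promoter windows (GRCh38.p14, 300 bases from 250 before to 50 after each start) were found for 78 of the 89 genes, with 103 windows in all. Capitals mark the matched letters, and each sequence is 30 bases read 5′ to 3′ on the strand of the gene.
DNAJA1, chr9:33025267-33025296, plus strand: cgccgggcgGAACTTTCCAGAAcgctcggt
DNAJB6, chr7:157336864-157336893, plus strand: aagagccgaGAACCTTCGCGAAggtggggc
HSP90AA1, chr14:102087112-102087141, minus strand: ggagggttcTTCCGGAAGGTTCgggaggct
HSP90AB1, chr6:44247769-44247798, plus strand: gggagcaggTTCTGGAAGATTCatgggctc
HSPA6, chr1:161524457-161524486, plus strand: gcggaaaggTTCGCGAAAGTTCgcggcggc
HSPA8, chr11:123062346-123062375, minus strand: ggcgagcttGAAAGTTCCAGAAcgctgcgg
HSPD1, chr2:197500061-197500090, minus strand: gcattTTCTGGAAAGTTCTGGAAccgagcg
HSPB1, chr7:76302480-76302509, plus strand: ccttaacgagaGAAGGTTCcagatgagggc
TCP1, chr6:159789815-159789844, minus strand: tcgtttgaggcGAAGGTTCaacctcttccc

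The first 7 of these hold at least 3 units of the repeat (TTC, GAA and TTC, or GAA, TTC and GAA, with NN between units, on either strand; HSPD1 holds 4), and they were the only genes of the 78 that did. That was 6.80% of the 103 member windows, against 0.490% of all 35116 windows in the table. HSPB1 and TCP1 hold 2 units (TTCNNGAA or GAANNTTC, which every 3-unit match also contains). The 2-unit motif was in 27.2% of the member windows and 13.5% of all windows. The AP-1 motif TGANTCA was in 4.85% of the member windows and 7.71% of all windows. A match is a description of these letters and no evidence of binding.

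Library totals ranged from 6893026 to 10604251 counts, and the groups overlapped in depth. FOSL1 itself was at 302, 256 and 182 CPM (a gene's share of its library's counts, scaled by edgeR's TMM factors) in GFPsh, 72.1, 70.1 and 44.8 in FOSL1sh3, and 70.7, 57.0 and 65.7 in FOSL1sh10. It fell by 1.98 ± 0.20 (log2 fold change ± SE, adjusted p = 1.2e-05) with FOSL1sh3 and by 1.94 ± 0.20 (adjusted p = 1.03e-05) with FOSL1sh10, in edgeR's quasi-likelihood test with Benjamini-Hochberg adjustment over all genes tested. All 8 biliary and epithelial markers were detected, with summed levels of 10920 to 11756 CPM in GFPsh, 12198 to 13556 in FOSL1sh3 and 10968 to 12929 in FOSL1sh10. Among markers of other cells, CD3E, CD68, COL3A1, PDGFRB, LUM, DCN and AHSG were at 0 in every library. The leukocyte list summed to 30.4 to 38.2, 30.5 to 38.4 and 124 to 168 CPM in the same groups, of which CD74 made up 142 ± 21.2 CPM in FOSL1sh10. The fibroblast and endothelial list summed to at most 9.55 CPM and the hepatocyte list to at most 17.6 CPM in any library, both of them in FOSL1sh10.

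A few genes made up most of the chaperone transcripts. In the GFPsh libraries the highest levels per kilobase of exon belonged to HSP90AB1, the constitutive HSP90, at 838 CPM per kb and HSPA8, the constitutive HSP70, at 659, followed by HSP90AA1, the stress-inducible HSP90, at 275. Then came the TRiC subunits CCT2 at 195, CCT3 at 180 and CCT7 at 178, the mitochondrial chaperonin HSPD1 at 155, the HSP70 partner DNAJA1 at 133, CCT6A at 99.7 and the stress-induced HSP70 cofactor BAG3 at 78.7. CCT2, CCT3 and CCT7 lay within each other's spread between libraries. The labels name a protocol that tags transcripts near their 3′ ends, so scaling by exon length can understate long genes. By CPM without that scaling HSPA8 was above HSP90AB1 in each GFPsh library, at means of 3198 and 2496 CPM. By family, HSP90 took 27.3% ± 0.382 of all member CPM in GFPsh (SD, n = 3), HSP70 23.8% ± 2.99 and TRiC 21.9% ± 0.787.

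**Figure D1:**
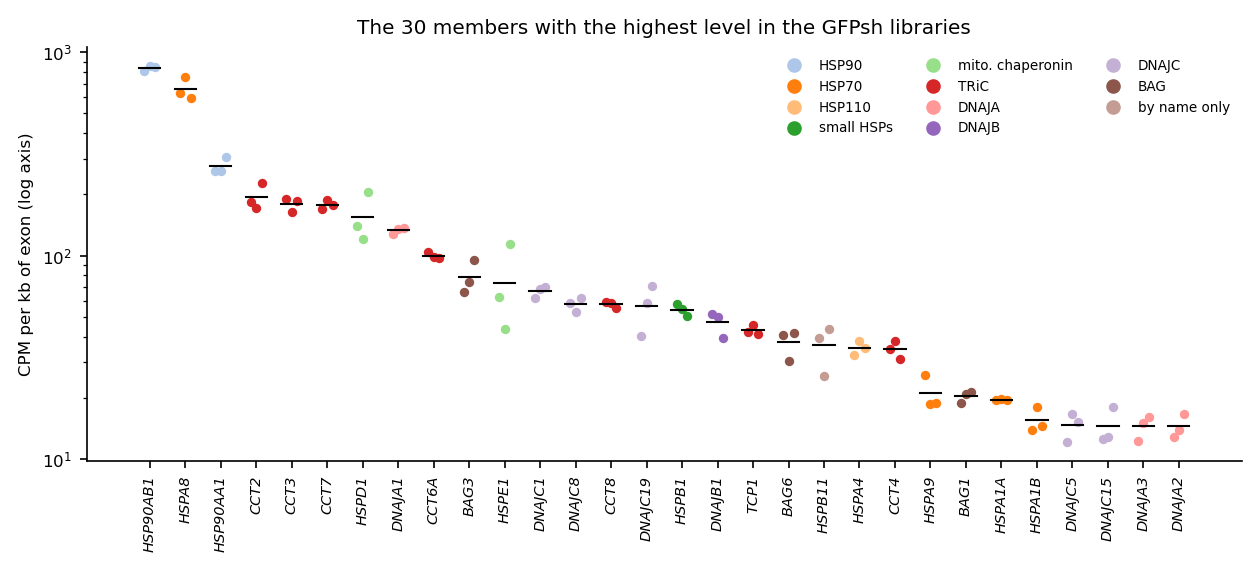
Levels of the 30 members with the highest mean in the 3 GFPsh libraries, in CPM per kb of exon on a log axis. Each point is a library, each line the mean of 3, and colours mark the families. HSP90AB1 at 838 and HSPA8 at 659 stand at the top, an order that reverses by CPM without scaling for exon length.

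At the other end, 10 members had no count in any library: HSPB2, HSPB3, HSPB6, HSPB7, DNAJB8, DNAJC5G, CCT8L2 and the readthroughs HSPE1-MOB4, HSPB2-C11orf52 and DNAJC25-GNG10. At these depths a count of 0 allows a level of up to 0.305 to 0.432 CPM, taking 3 counts as the limit and covering counting error only. The members just inside the filter were HSPB8 with 74 counts over 9 libraries, HSPA12A with 118, HSPA2 with 164, DNAJC9 with 166 and DNAJC14 with 178. Just outside were HSPA1L with 60, DNAJB5 with 47, DNAJC27 with 46, HSPA6 with 45 and DNAJC28 with 33. HSPA6, an HSP70 that is silent in most unstressed human cells and strongly induced by heat, had 0 to 9 counts in each of the 9 libraries.

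Summed over the 89 genes, the mean level (± SD, n = 3) with TMM scaling was 14406 ± 518 CPM for GFPsh, 12615 ± 353 for FOSL1sh3 and 13036 ± 335 for FOSL1sh10. Every FOSL1sh3 library was below every GFPsh library, also on library totals without TMM scaling, where FOSL1sh3 lay at 11695 to 12278 and GFPsh at 13857 to 14674. The FOSL1sh10 libraries were below the GFPsh libraries with TMM scaling only, since on library totals they lay at 13179 to 14439. No test was made on this sum.

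With FOSL1sh3, 12 of the 67 tested members changed, 11 of them lower, and the lower ones included 3 of the 8 TRiC subunits tested. The 11 that fell were TCP1, CCT4, CCT8, HSPA14, HSPA13, HSPH1, DNAJA1, DNAJC2, DNAJC10, DNAJC21 and BAG2, and the 1 that rose was DNAJC4. Changed means an adjusted p under 0.05 in edgeR's quasi-likelihood test over all genes. That is 17.9% of members, where 10.9% of all genes tested were called. In the lower direction it is 16.4% of members against 5.65% of all genes, and in the higher direction 1.49% against 5.21%. The median log2 fold change was -0.13 over the members and 0.01 over all genes. The 3 FOSL1sh3 libraries did not overlap the 3 GFPsh libraries for 18 members in the lower direction, where 14.5% of all genes were so, and for 6 in the higher direction, where 14.7% were so. Without FOSL1sh3 replicate 3, 8 members were called, and the same number without GFPsh replicate 1, 2 or 3.

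**Figure D2:**
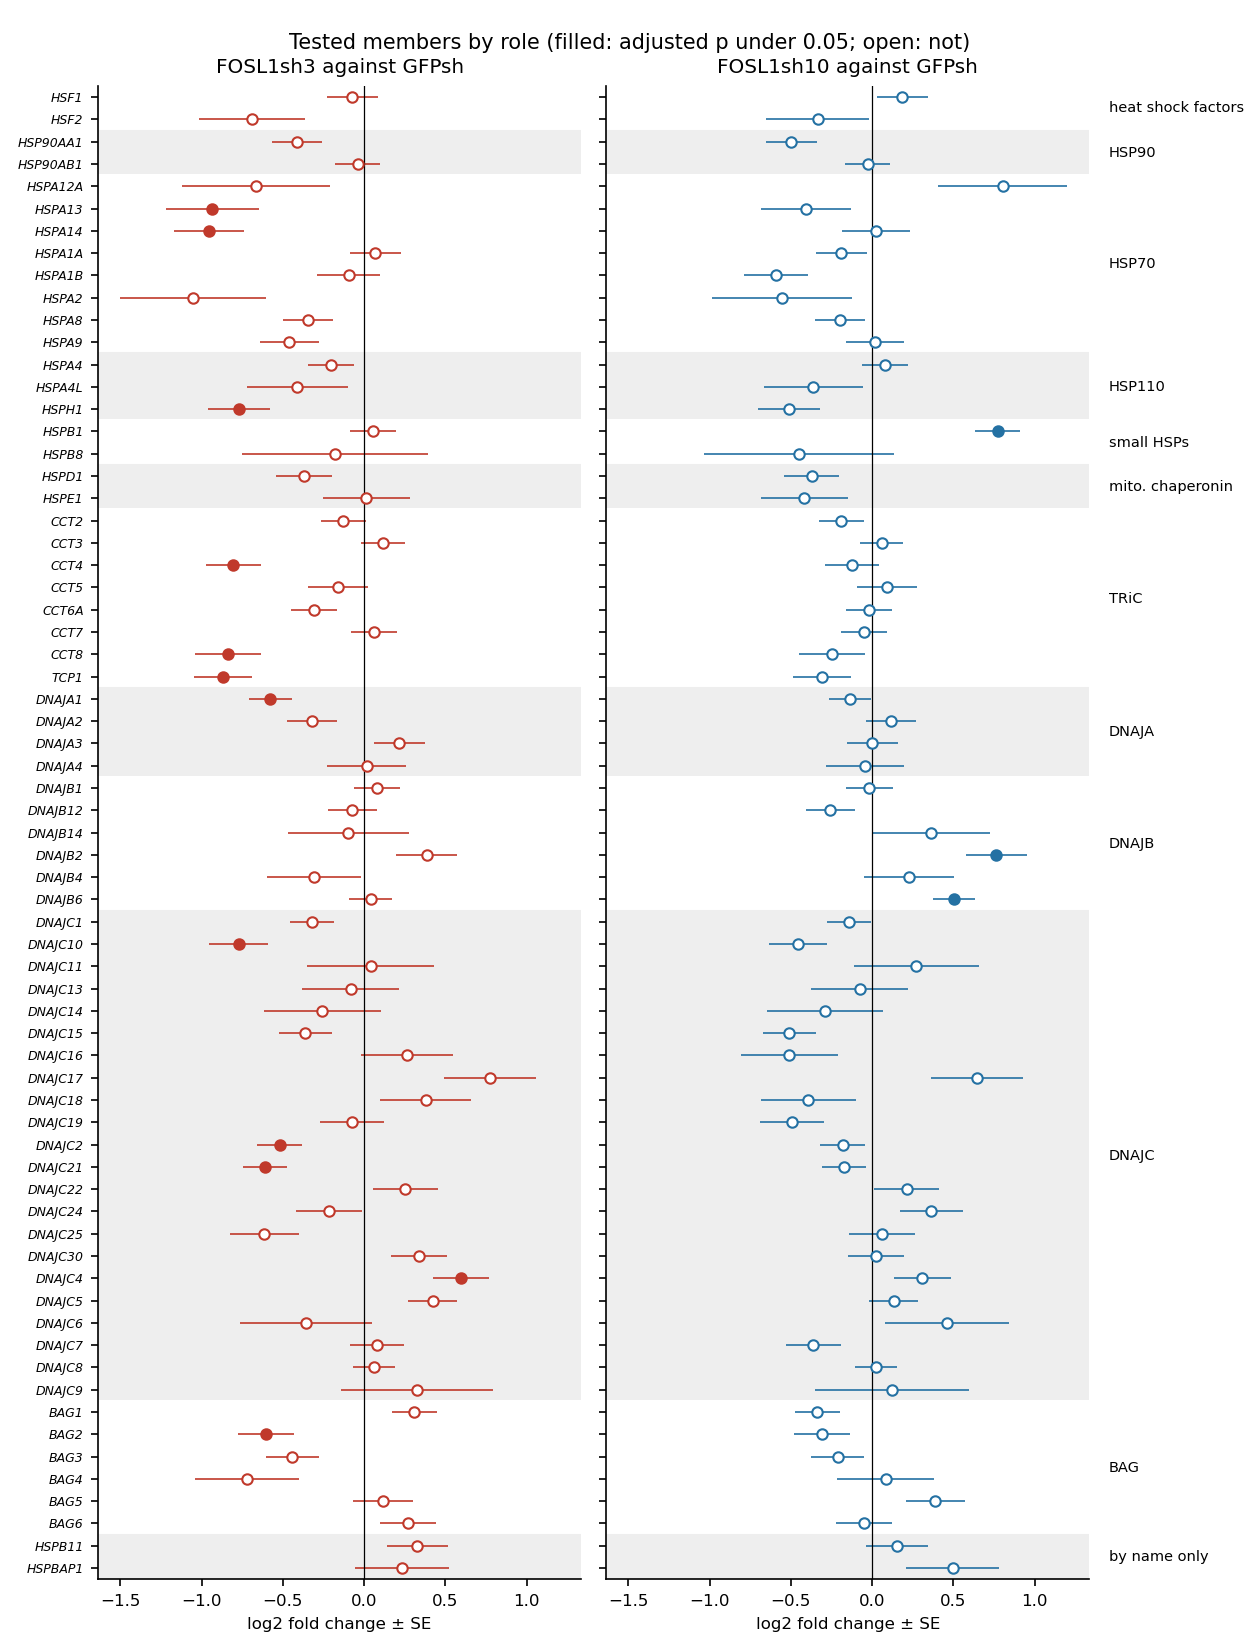
Log2 fold change with its SE for the 67 tested members, grouped by role, with FOSL1sh3 (left) and FOSL1sh10 (right) against the same 3 GFPsh libraries. Filled points passed an adjusted p of 0.05; in the left panel 11 of the 12 filled points lie below 0, and in the right panel all 3 lie above it.

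The TRiC ring changed unevenly. TCP1 (ENSG00000120438.11, chr6:159778498-159789749, minus strand), the subunit also called CCT1, was at 209, 225 and 203 CPM in GFPsh, at 109, 156 and 82.9 in FOSL1sh3 and at 156, 189 and 169 in FOSL1sh10. Both hairpin groups lay below every control, and they overlapped each other in 1 library, FOSL1sh3 replicate 2. The fall with FOSL1sh3 was 0.87 ± 0.18 on the log2 scale (-0.87, adjusted p = 0.00557, edgeR).

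CCT4 (ENSG00000115484.14, chr2:61868089-61888804, minus strand) was at 98.4, 108 and 87.4 CPM in GFPsh, at 56.3, 70.4 and 41.5 in FOSL1sh3 and at 90.4, 96.8 and 82.0 in FOSL1sh10. It was lower in every FOSL1sh3 library than in any other library, with a log2 fold change of -0.80 ± 0.17 against GFPsh (adjusted p = 0.00599, edgeR). CCT8 (ENSG00000156261.12, chr21:29055805-29073797, minus strand) was at 198, 195 and 184 CPM in GFPsh, at 110, 147 and 66.3 in FOSL1sh3 and at 150, 189 and 147 in FOSL1sh10. Its log2 fold change with FOSL1sh3 was -0.84 ± 0.20 (adjusted p = 0.0152), and the call was lost without GFPsh replicate 1 (adjusted p = 0.0538). For all 3 subunits replicate 3 was the lowest and replicate 2 the highest of the FOSL1sh3 libraries.

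The other 5 TRiC subunits did not pass the test. With FOSL1sh3 their log2 fold changes were -0.13 for CCT2 (95% interval -0.42 to 0.16), 0.12 for CCT3 (-0.16 to 0.40), 0.06 for CCT7 (-0.23 to 0.36), -0.31 ± 0.14 for CCT6A (adjusted p = 0.173) and -0.16 ± 0.19 for CCT5 (adjusted p = 0.62). CCT6A was at 405, 382 and 380 CPM in GFPsh and at 347, 345 and 251 in FOSL1sh3, so its groups did not overlap. As shares of all TRiC CPM, TCP1 went from 6.75% ± 0.599 in GFPsh to 4.07% ± 1.37 in FOSL1sh3 and 5.76% ± 0.553 with FOSL1sh10, as mean and SD of 3 libraries. CCT3 took 22.9% ± 1.40, 27.3% ± 2.92 and 25.3% ± 0.548. With FOSL1sh10 edgeR called 0 of the 8 subunits, with 0 at an unadjusted p under 0.05 and 0 in DESeq2, and their log2 fold changes ran from -0.31 (TCP1) to 0.09 (CCT5).

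**Figure D3:**
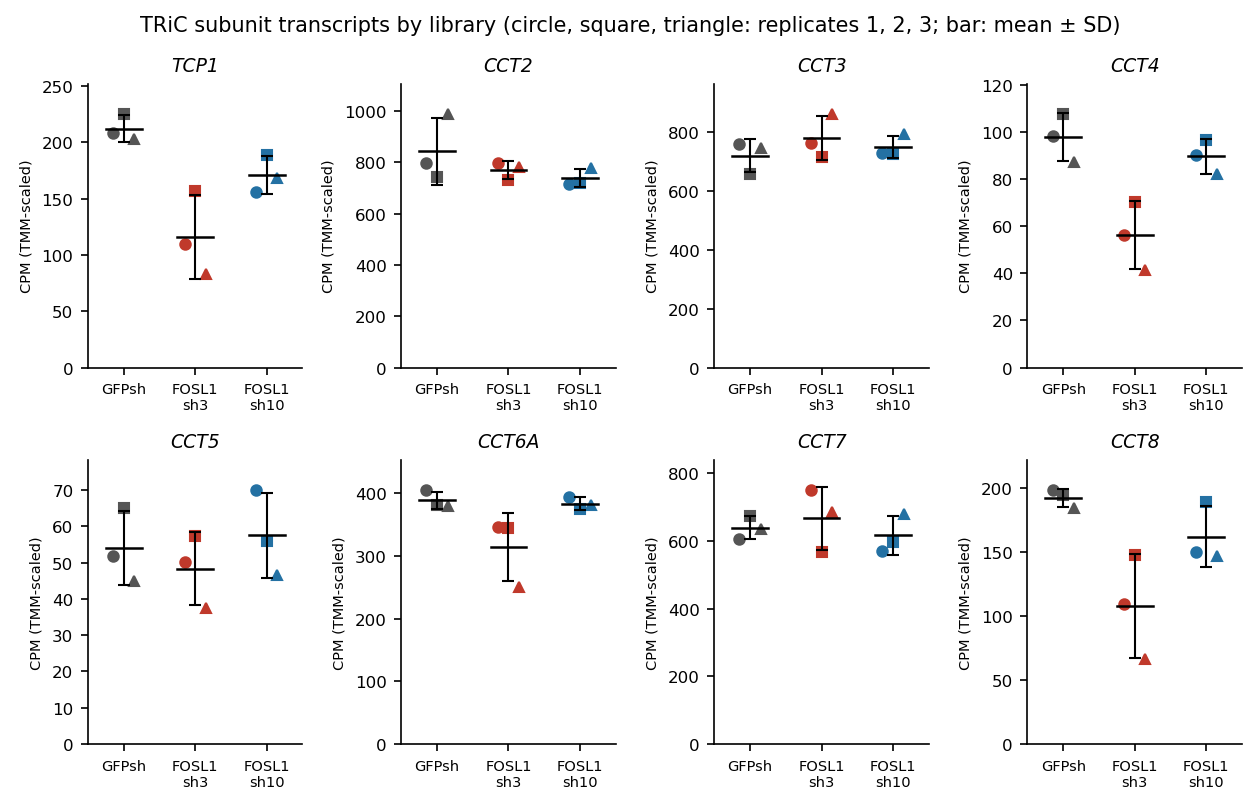
CPM (TMM-scaled) of the 8 tested TRiC subunits in each library, with the mean and SD of each group. TCP1, CCT4 and CCT8 are lower in all 3 FOSL1sh3 libraries than in all GFPsh libraries, while CCT2, CCT3, CCT5 and CCT7 overlap.

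Neighbouring genes touch some of these values. Counting used no strand and, by the counter's default, a read that overlaps exons of more than 1 gene is given to neither. Exons of ACAT2, on the opposite strand, cover 67.8% of the last 500 exon bases of TCP1, and ACAT2, an enzyme of the mevalonate pathway, fell by 1.22 with FOSL1sh3 (adjusted p = 0.00386, edgeR). For CCT4 31.4% of those bases were shared, and for CCT5, BAG2 and DNAJC2 100% were. CCT8, CCT2, CCT3, CCT6A and CCT7 shared none. HSPA14 shared 17.4% of all its exon bases, with the other identifier of that name and with CDNF, and 0 of the last 500. The part of this sharing in the results was not tested.

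Among the HSP70 proteins, HSPA14 and HSPA13 fell with FOSL1sh3 and 6 others tested did not pass. HSPA14 (ENSG00000187522.15, chr10:14838164-14871741, plus strand), a ribosome-associated HSP70 that works with the J-domain protein DNAJC2 on new chains, was at 30.3, 28.3 and 33.6 CPM in GFPsh, at 16.3, 21.3 and 10.2 in FOSL1sh3 and at 30.2, 36.4 and 27.1 in FOSL1sh10. The FOSL1sh3 libraries were all below the rest. The log2 fold change was -0.95 ± 0.21 (adjusted p = 0.00944, edgeR) with FOSL1sh3 and 0.02 ± 0.21 (adjusted p = 0.97) with FOSL1sh10. HSPA13 was at 6.88, 6.17 and 7.15 CPM in GFPsh and at 4.71, 3.17 and 2.54 in FOSL1sh3, a log2 fold change of -0.93 ± 0.29 (adjusted p = 0.0428), a call lost without any 1 of 6 of the 9 libraries (adjusted p 0.0595 to 0.151), in DESeq2 (0.0513), with only the groups compared (0.0668) and with a trend on GC content and length removed (-0.55, 0.259).

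The main cytosolic HSP70 genes HSPA8, HSPA1A and HSPA1B did not pass the test in any comparison as fitted over all libraries. HSPA8 was at 3047, 3670 and 2876 CPM in GFPsh, at 2321, 2981 and 2243 in FOSL1sh3 and at 2978, 2533 and 2844 in FOSL1sh10, and the groups overlapped (log2 fold change -0.35 ± 0.15, adjusted p = 0.152 with FOSL1sh3, and -0.20 ± 0.15, adjusted p = 0.53 with FOSL1sh10, edgeR). HSPA1A, a stress-inducible HSP70, was at 48.3, 49.2 and 48.5 CPM in GFPsh, at 45.6, 46.0 and 61.7 in FOSL1sh3 and at 46.1, 35.4 and 46.5 in FOSL1sh10. HSPA1B, its near-identical neighbour, was at 35.0, 45.5 and 36.7, at 25.2, 46.0 and 39.0, and at 29, 22.4 and 26.4 CPM. Reads can be split or lost between this pair, so both values are uncertain. The log2 fold change of HSPA1B with FOSL1sh10 was -0.59 ± 0.20 (adjusted p = 0.0914), and it passed with no low-count filter (0.0291), with only the groups compared (0.0199) and without FOSL1sh3 replicate 1 (0.0349). HSPA8 passed with FOSL1sh3 without FOSL1sh3 replicate 2 (0.0452). HSPA9, the mitochondrial HSP70, had -0.46 ± 0.18 (adjusted p = 0.108, and 0.0352 without FOSL1sh3 replicate 1) with FOSL1sh3 and 0.01 ± 0.18 (adjusted p = 0.979) with FOSL1sh10.

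HSPH1, the heat-inducible HSP110, fell with FOSL1sh3. It was at 24.5, 28.2 and 26.7 CPM in GFPsh, at 16.5, 16.1 and 14.0 in FOSL1sh3 and at 23.8, 18.1 and 14.2 in FOSL1sh10. Both hairpin groups lay below all controls, with log2 fold changes of -0.77 ± 0.19 (adjusted p = 0.0161, edgeR) and -0.51 ± 0.19 (adjusted p = 0.13). The FOSL1sh3 call was lost without GFPsh replicate 2 or without FOSL1sh3 replicate 3 (adjusted p 0.053 and 0.0534), and with the trend on GC content and length removed (0.0853). The other HSP110 genes, HSPA4 and HSPA4L, had -0.20 ± 0.14 (adjusted p = 0.393) and -0.41 ± 0.31 (adjusted p = 0.424).

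HSP90AA1 was at 1363, 1364 and 1601 CPM in GFPsh, at 1299, 933 and 1021 in FOSL1sh3 and at 1048, 873 and 1143 in FOSL1sh10, so every hairpin library was below every control. The log2 fold changes of -0.41 ± 0.16 (adjusted p = 0.0963, edgeR) and -0.50 ± 0.16 (adjusted p = 0.0716) missed the threshold for each hairpin, and the mean of both passed at -0.45 ± 0.13 (adjusted p = 0.0479). That call was lost without any 1 of 8 of the 9 libraries (adjusted p 0.0573 to 0.206). The FOSL1sh10 value passed in DESeq2 (0.0238), with no low-count filter (0.0272), with only the groups compared (0.0266) and without FOSL1sh3 replicate 1 (0.0421). The FOSL1sh3 value passed on library totals (0.0417) and without FOSL1sh3 replicate 1 (0.0391). HSP90AB1 was at 2408, 2556 and 2524 CPM in GFPsh, at 2637, 2393 and 2259 in FOSL1sh3 and at 2195, 2735 and 2412 in FOSL1sh10. Its groups overlapped, with 95% intervals of the log2 fold change of -0.33 to 0.25 and -0.32 to 0.26.

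Of 32 J-domain genes tested, 5 changed with FOSL1sh3, which is 15.6% where 10.9% of all genes were called. DNAJA1 (chr9:33025211-33039907, plus strand), a main cytosolic J-domain partner of HSP70, was at 348, 369 and 373 CPM in GFPsh, at 257, 263 and 210 in FOSL1sh3 and at 327, 333 and 332 in FOSL1sh10. The 3 groups formed 3 separate ranges, with a log2 fold change of -0.58 ± 0.13 (adjusted p = 0.0104, edgeR) for FOSL1sh3 and -0.14 ± 0.13 (adjusted p = 0.632) for FOSL1sh10. DNAJC21, a ribosome assembly cofactor, was at 123, 124 and 113 CPM in GFPsh and at 84.3, 84.9 and 67.2 in FOSL1sh3 (-0.61 ± 0.14, adjusted p = 0.00918), again without overlap. With the trend on GC content and length removed both calls were lost, at -0.33 (0.0953) for DNAJA1 and -0.38 (0.0673) for DNAJC21. DNAJC10, a disulfide reductase of the endoplasmic reticulum, was at 25, 27.3 and 27.0 CPM in GFPsh, at 16.4, 17.7 and 12.4 in FOSL1sh3 and at 20.2, 21.5 and 16.3 in FOSL1sh10. Both hairpin groups were below all controls, and the log2 fold change was -0.77 ± 0.18 (adjusted p = 0.0119) with FOSL1sh3 and -0.46 ± 0.18 (adjusted p = 0.158) with FOSL1sh10.

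DNAJC2, the ribosome-associated partner of HSPA14, was at 49.4, 60.6 and 57.7 CPM in GFPsh and at 38.8, 36.7 and 41.5 in FOSL1sh3, a log2 fold change of -0.52 ± 0.14 (adjusted p = 0.0249, edgeR). DNAJC4 rose from 15.7, 15.7 and 18.7 CPM to 24.2, 23.6 and 28.1, by 0.60 ± 0.17 (adjusted p = 0.0347). Neither pair of groups overlapped, but each call was lost without single libraries: without any 1 of 4 for DNAJC2 (adjusted p 0.0508 to 0.0924) and any 1 of 5 for DNAJC4 (0.0508 to 0.119). DNAJC2 was also lost in a fit of the 2 groups alone (0.0561), and DNAJC4 on library totals (0.0595), with no low-count filter (0.0572) and in that fit (0.0559). With the trend on GC content and length removed they stood at -0.33 (0.171) for DNAJC2 and 0.36 (0.186) for DNAJC4. The stress-inducible DNAJB1, the usual J-domain partner of HSP70 in disaggregation, was at 190, 184 and 145 CPM in GFPsh, at 194, 173 and 181 in FOSL1sh3 and at 156, 162 and 194 in FOSL1sh10. Its groups overlapped, and the 95% intervals of its log2 fold change were -0.22 to 0.38 and -0.32 to 0.28.

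Among the BAG genes, BAG2, an inhibitor of the ubiquitin ligase CHIP, was at 63.6, 55.5 and 66.3 CPM in GFPsh, at 42.0, 47.2 and 33.0 in FOSL1sh3 and at 40.3, 62.5 and 46.3 in FOSL1sh10. It fell with FOSL1sh3 by 0.60 ± 0.17 (log2 fold change -0.60, adjusted p = 0.0323, edgeR), and the call was lost without any 1 of 4 libraries (adjusted p 0.0592 to 0.123) and with the trend on GC content and length removed (-0.32, 0.204). BAG3 was at 182, 204 and 262 CPM in GFPsh, at 124, 171 and 183 in FOSL1sh3 and at 193, 178 and 189 in FOSL1sh10, with overlapping groups and a log2 fold change of -0.44 ± 0.16 (adjusted p = 0.09) for FOSL1sh3.

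The fold changes followed base composition across genes. With FOSL1sh3 the correlation of the log2 fold change with the GC content of the longest transcript was 0.396 (Pearson) over 12805 genes and 0.559 over the 67 members, and with FOSL1sh10 it was 0.145 and 0.262. These are descriptions across genes, which share the same 6 libraries. The 11 members that fell with FOSL1sh3 had 34.9 to 44.7% GC with a median of 41.7%, the other 56 tested members a median of 47.4%, and all genes a median of 48.4%. With the trend on GC content and length removed, an alternative chosen after seeing the data, 6 members were called with FOSL1sh3. Of the 12, these kept TCP1 (-0.70, adjusted p = 0.0152, edgeR), CCT4 (-0.66, 0.0175), CCT8 (-0.66, 0.036), HSPA14 (-0.77, 0.0205) and DNAJC10 (-0.57, 0.0479). BAG3 was the sixth (-0.60, 0.0339). Whether base composition has a part in the remaining calls was not tested further.

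**Figure D4:**
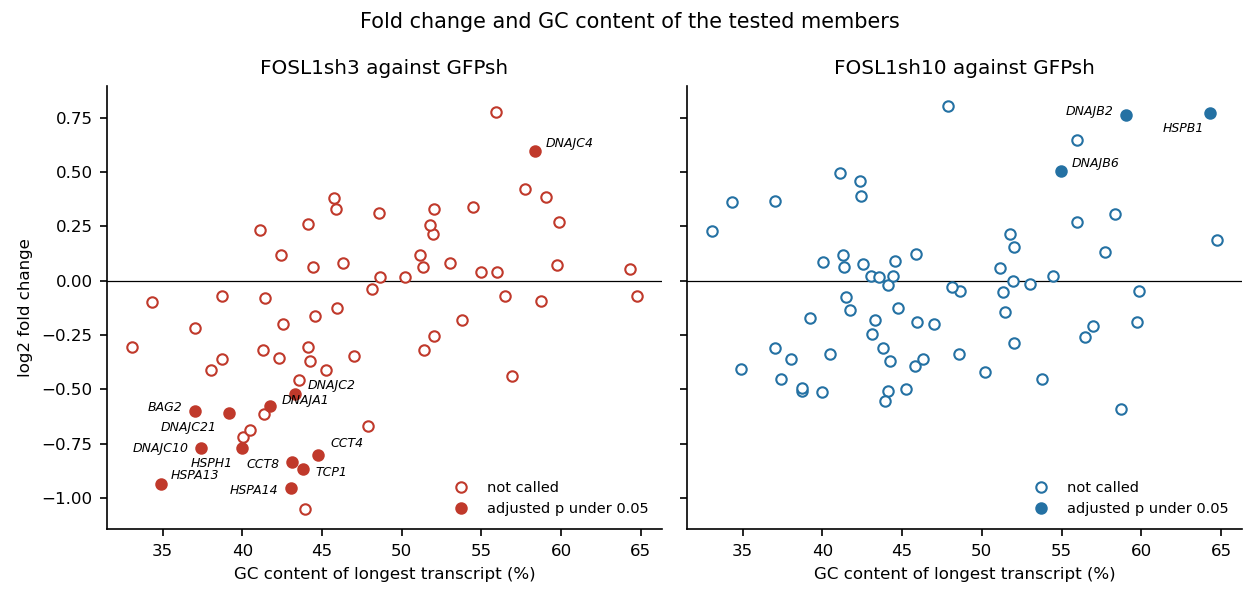
Log2 fold change against GFPsh plotted over the GC content of the longest transcript for the 67 tested members, with FOSL1sh3 on the left and FOSL1sh10 on the right. Filled, named points passed an adjusted p of 0.05; the 11 lower members on the left lie between 34.9 and 44.7% GC.

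With FOSL1sh10, 3 members rose and edgeR called none lower in the fit over all libraries, while it called 2 higher and 4 lower with no low-count filter and 3 higher and 3 lower with only the groups compared. HSPB1, DNAJB2 and DNAJB6 are 4.48% of the members tested, where 5.28% of all genes were called, so the count is near the background. By direction it is 4.48% of members higher against 3.13% of all genes, and 0 members lower against 2.15%. At an unadjusted p under 0.05 there were 5 higher and 9 lower, and DESeq2 called 3 higher and 1 lower, HSP90AA1. The median log2 fold change was -0.05 over the members and 0.00 over all genes, and on library totals alone the member median was 0.06. Groups did not overlap for 7 members in the higher direction (14.3% of all genes) and for 13 in the lower (13% of all genes). The count was 1 without GFPsh replicate 1 or 3 or without FOSL1sh10 replicate 1 or 3, and 5 without FOSL1sh3 replicate 1.

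HSPB1 (ENSG00000106211.8, chr7:76302544-76304295, plus strand) encodes HSP27, the small heat shock protein that holds unfolded proteins and protects the actin cytoskeleton, and its 2-unit repeat is printed above. It was at 94.3, 89.0 and 82.2 CPM in GFPsh, at 108, 85.2 and 81.9 in FOSL1sh3 and at 143, 151 and 159 in FOSL1sh10. The FOSL1sh10 libraries all lay above the other 6, which overlapped. The log2 fold change was 0.77 ± 0.14 (adjusted p = 0.00235, edgeR) with FOSL1sh10 and 0.05 ± 0.14 (adjusted p = 0.846) with FOSL1sh3, whose 95% interval was -0.24 to 0.35. The FOSL1sh10 call was kept under every alternative run, with adjusted p up to 0.0185. HSPB8, the other small heat shock protein tested among the members, had at most 1.93 CPM in any library and was not called. CRYAB, a small heat shock protein whose name the rule does not take in, was not called either. It was at 1.51, 1.68 and 0.55 CPM in GFPsh, at 2.56, 1.44 and 1.14 in FOSL1sh3 and at 2.13, 2.03 and 2.85 in FOSL1sh10. The FOSL1sh10 libraries lay above all controls, at levels near the filter.

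DNAJB2, a J-domain protein that binds ubiquitinated clients, was at 17.6, 22.1 and 15.7 CPM in GFPsh, at 19.6, 24.3 and 28.8 in FOSL1sh3 and at 34.1, 27.5 and 32.6 in FOSL1sh10. FOSL1sh10 lay above all controls, by 0.76 ± 0.19 on the log2 scale (adjusted p = 0.0198, edgeR), and the call was lost without any 1 of 4 libraries (adjusted p 0.0803 to 0.102). DNAJB6, a J-domain protein that suppresses aggregation and whose window holds 3 units, was at 62.1, 62.4 and 58.1 CPM in GFPsh, at 64.8, 65.6 and 57.3 in FOSL1sh3 and at 83.5, 93.9 and 81.5 in FOSL1sh10. It rose by 0.50 ± 0.13 (adjusted p = 0.0285) with FOSL1sh10, a call lost without any 1 of the 6 GFPsh and FOSL1sh10 libraries (0.0706 to 0.166), with no low-count filter (0.0615) and with the GC and length trend removed (0.0764). In FOSL1sh3 it had the level of the controls (0.04 ± 0.13, adjusted p = 0.877).

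**Figure D5:**
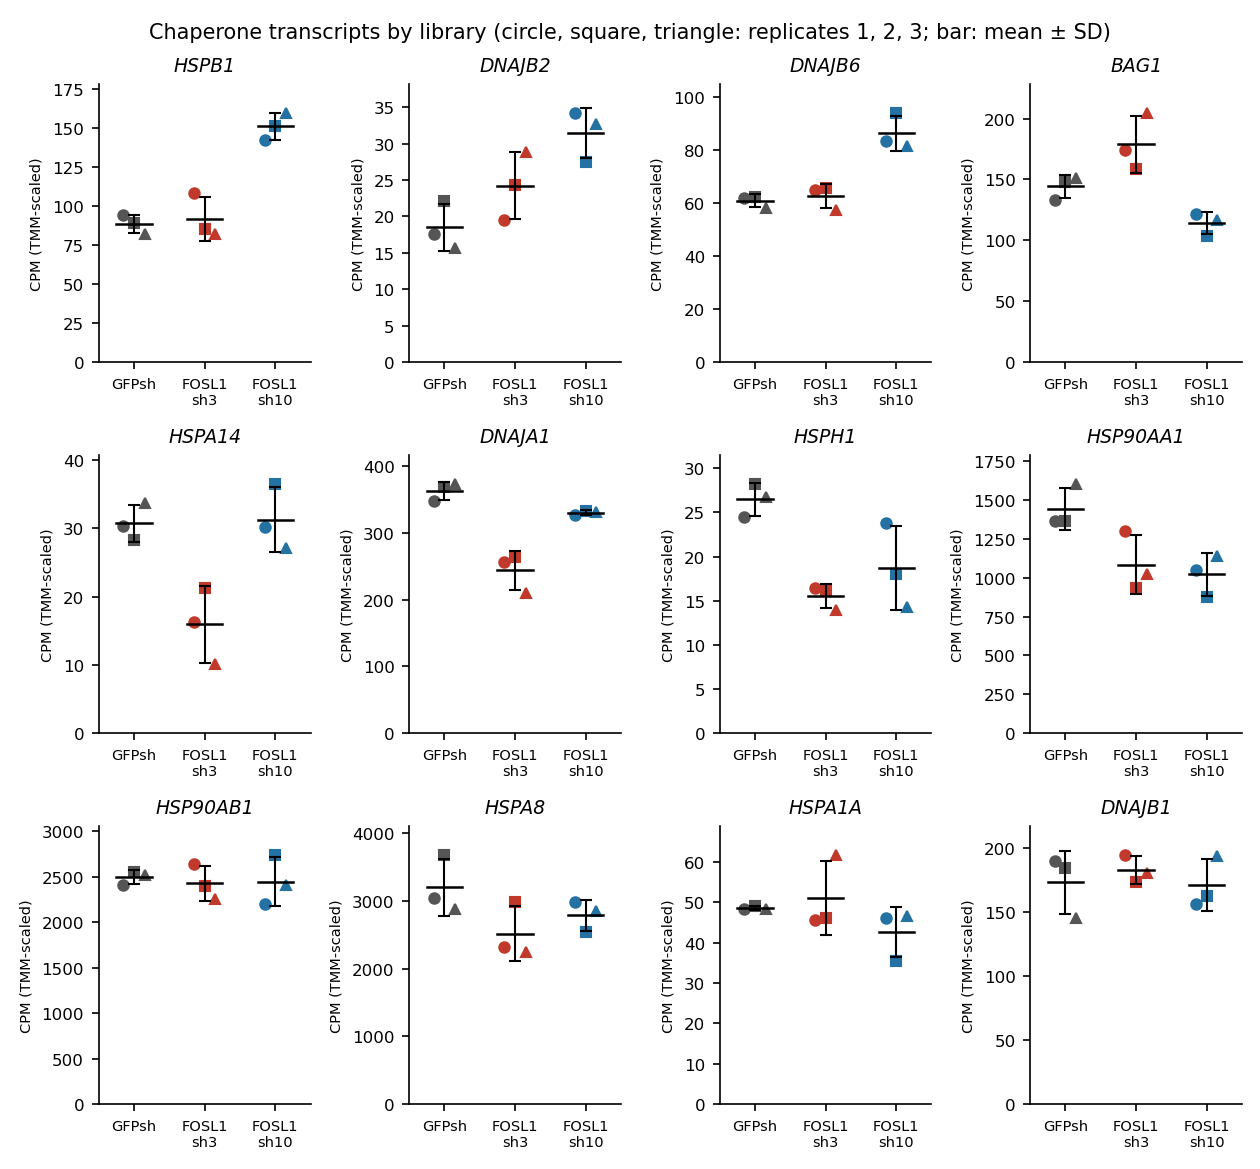
CPM (TMM-scaled) in each library of 12 members, with the mean and SD of each group. HSPB1, DNAJB2 and DNAJB6 are higher in all FOSL1sh10 libraries than in all GFPsh libraries, HSPA14 and DNAJA1 are lowest in FOSL1sh3, and HSP90AB1, HSPA8 and DNAJB1 overlap.

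Taking the mean of both hairpins against GFPsh, 5 members were called, DNAJB2 higher and DNAJC10, TCP1, HSPH1 and HSP90AA1 lower. That is 7.46% of members, where 6.22% of all genes were called. In the lower direction it is 4 members against 2.97% of all genes, and in the higher direction 1 against 3.25%. The log2 fold changes were 0.58 ± 0.16 for DNAJB2 (adjusted p = 0.0448, edgeR), -0.61 ± 0.15 for DNAJC10 (0.0224), -0.59 ± 0.15 for TCP1 (0.0262) and -0.64 ± 0.16 for HSPH1 (0.0236). The DNAJB2 call was lost with the replicate block (0.0515). With the trend on GC content and length removed the calls of DNAJB2 (0.122), DNAJC10 (0.0569), HSPH1 (0.0756) and HSP90AA1 (0.0945) were lost. The member median was -0.10, and -0.01 over all genes. All 6 hairpin libraries were below all 3 controls for 7 members (4.39% of all genes), among them DNAJA1, DNAJC15 and DNAJC21, which did not pass the test, and above them for 2 (5.28% of all genes), DNAJC17 and DNAJC22, named after their values were seen. The count was 0 without GFPsh replicate 1 or 3 or FOSL1sh10 replicate 3, 1 without GFPsh replicate 2, 2 without FOSL1sh10 replicate 1 and 10 without FOSL1sh3 replicate 2.

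The hairpins differed from each other for 10 members, 14.9% of those tested, where 12.7% of all genes were called in this comparison. In the lower direction, with FOSL1sh3 below FOSL1sh10, there were 9 members (13.4%, against 6.99% of all genes), and in the higher direction 1 (1.49%, against 5.74%). Groups did not overlap for 16 members in the lower direction (15.9% of all genes) and for 7 in the higher (14.8% of all genes). The log2 difference of FOSL1sh3 from FOSL1sh10 was -0.98 ± 0.21 for HSPA14 (adjusted p = 0.00627, edgeR) and -0.72 ± 0.14 for HSPB1 (adjusted p = 0.00297), and both calls were kept under every alternative run. It was -0.68 ± 0.17 for CCT4 (0.0134), lost without FOSL1sh3 replicate 3 or FOSL1sh10 replicate 2 (0.0503 to 0.0736). It was -0.56 ± 0.18 for TCP1 (0.0476), lost without any 1 of 8 libraries (0.0555 to 0.193).

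BAG1 (ENSG00000107262.20, chr9:33247820-33264720, minus strand), which releases nucleotide from HSP70 and links it to the proteasome, was the 1 member higher in FOSL1sh3 than in FOSL1sh10. It was at 133, 148 and 151 CPM in GFPsh, at 174, 158 and 204 in FOSL1sh3 and at 122, 104 and 117 in FOSL1sh10. FOSL1sh3 lay above and FOSL1sh10 below all controls, yet neither passed against GFPsh (0.31 ± 0.14, adjusted p = 0.155, and -0.34 ± 0.14, adjusted p = 0.174, edgeR). The difference between the hairpins was 0.65 ± 0.14 (adjusted p = 0.00515), kept under every alternative run, with adjusted p up to 0.0398.

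The other members lower in FOSL1sh3 than in FOSL1sh10 were DNAJA1 and DNAJB6, described above, DNAJC21, DNAJC25 and HSPA12A. DNAJC25 was at 9.42, 14.1 and 13.1 CPM in FOSL1sh3 and at 14.1, 21.8 and 22.0 in FOSL1sh10, ranges that meet at 14.1. HSPA12A, a distant relative of the HSP70 family, was at 0.963, 1.23 and 1.87 CPM in GFPsh, at 0.717, 0.863 and 1.02 in FOSL1sh3 and at 2.28, 2.48 and 2.44 in FOSL1sh10, on 6 to 24 counts per library. It passed the expression filter only through the FOSL1sh10 libraries, where it is high, so its difference is given as a description, and its call was lost in DESeq2 (adjusted p = 0.0727). With the trend on GC content and length removed the calls of DNAJA1 (0.146), DNAJC21 (0.156), DNAJC25 (0.141) and TCP1 (0.0836) were lost too. Without 1 library these calls were lost in 5 to 7 of 9 cases for DNAJA1, DNAJB6, DNAJC21, DNAJC25 and HSPA12A. The count of 10 became 3 without FOSL1sh3 replicate 3 or FOSL1sh10 replicate 2, 4 without FOSL1sh10 replicate 3, and 5 without GFPsh replicate 1 or FOSL1sh10 replicate 1. It became 18 on library totals, which shift the median of all genes by -0.17 in this comparison.

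The heat shock factors were not called in any comparison. HSF1 was at 77.3, 87.6 and 64.5 CPM in GFPsh, at 70.7, 84.0 and 63.5 in FOSL1sh3 and at 95.2, 73.3 and 92.6 in FOSL1sh10, with overlapping groups and 95% intervals of the log2 fold change of -0.40 to 0.26 and -0.14 to 0.52. HSF2 was at 4.13, 4.60 and 3.19 CPM in GFPsh, at 2.25, 3.02 and 2.16 in FOSL1sh3 and at 2.28, 3.38 and 3.66 in FOSL1sh10. FOSL1sh3 lay below all controls, with a log2 fold change of -0.69 ± 0.33 (adjusted p = 0.184, edgeR). Of 4 further genes tested, HSF4 and the heat shock factor binding proteins HSBP1, HSBP1L1 and HSF2BP, edgeR and DESeq2 called 0 with FOSL1sh3 and 0 with FOSL1sh10, with 0 and 2 at an unadjusted p under 0.05. The activity of these factors depends on the protein more than on its transcript, which these data do not measure.

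Of the 7 members with 3 or more units, 6 were tested, and 5 of the 6 had log2 fold changes below 0 with each hairpin. With FOSL1sh3 the median was -0.36 and the range -0.58 to 0.04, and DNAJA1 fell. With FOSL1sh10 the median was -0.17 and the range -0.50 to 0.50, and DNAJB6 rose. Of the 21 tested members with the 2-unit motif, 4 fell and 0 rose with FOSL1sh3. Of the 39 tested members with a window but no match, 6 fell and 1 rose with FOSL1sh3, where 5.65% of all genes fell and 5.21% rose. With FOSL1sh10 edgeR called 2 of the 21 higher and 0 lower, and 1 of the 39 higher and 0 lower. Of all genes 3.13% rose and 2.15% fell with FOSL1sh10. The medians were -0.35 with the 2-unit motif in a window and 0.01 without it for FOSL1sh3, and -0.19 and -0.05 for FOSL1sh10. This split goes by the windows alone. HSPE1, which shares a promoter with HSPD1, stands among the members without a match. No test of this difference was made.

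The 2 genes of the mitochondrial chaperonin were not called in any comparison. With each hairpin 1 of the 2 had an unadjusted p under 0.05 in edgeR. HSPD1 was at 594, 513 and 873 CPM in GFPsh, at 467, 485 and 582 in FOSL1sh3 and at 501, 504 and 524 in FOSL1sh10, and its log2 fold change was -0.37 ± 0.17 with each hairpin (adjusted p = 0.173 and 0.234, edgeR). HSPE1, which shares a promoter with it and caps its ring, was at 124, 86.3 and 226 CPM in GFPsh, at 180, 111 and 150 in FOSL1sh3 and at 105, 80.8 and 140 in FOSL1sh10. The log2 fold change of HSPE1 was 0.01 with FOSL1sh3 and -0.42 with FOSL1sh10. GFPsh replicate 3 was the highest of all libraries for both genes.

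Genes around these chaperones showed the same tests as follows. For this and the following lists only DESeq2 was set beside the main fit. Their calls were not examined without single libraries or with the trend on GC content and length removed. Of 21 HSP90 co-chaperones tested, 6 fell with FOSL1sh3 and edgeR called 0 higher (3 higher at an unadjusted p under 0.05, 0 higher in DESeq2). The 6 that fell were 28.6% of those tested, where 5.65% of all genes fell. They include CHORDC1 (-1.14 ± 0.21, adjusted p = 0.00259), PTGES3 (p23, which locks HSP90 closed on its client; -0.74 ± 0.16, 0.00827) and RPAP3 (-0.70 ± 0.18, 0.0213). With FOSL1sh10 only FKBP5, an HSP90-binding immunophilin, fell (-0.81 ± 0.15, 0.00235), which is 4.76% of the 21, where 2.15% of all genes fell. CHORDC1 was at 63.6, 53.7 and 68.9 CPM in GFPsh, at 23.1, 40.9 and 20.8 in FOSL1sh3 and at 39.3, 53.1 and 43.6 in FOSL1sh10. As with TCP1, FOSL1sh3 replicate 3 was the lowest library and replicate 2 the highest of its group.

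Of 13 prefoldin subunits and other TRiC helpers, 2 fell with FOSL1sh3: VBP1, a prefoldin subunit that hands chains to TRiC (-0.71 ± 0.16, adjusted p = 0.00964, edgeR), and PDCL3, a phosducin-like TRiC cofactor (-0.75 ± 0.16, 0.00682). That is 15.4% of the 13, where 5.65% of all genes fell. With FOSL1sh10 0 of the 13 were called, with 1 higher at an unadjusted p under 0.05 and 0 in DESeq2. Of 11 HSP70 co-chaperones tested, edgeR called 0 with either hairpin, with 0 at an unadjusted p under 0.05 and 0 in DESeq2. Between the hairpins UBQLN1 was lower in FOSL1sh3 (-0.48 ± 0.14, adjusted p = 0.0338, edgeR). It is 9.09% of the 11, where 6.99% of all genes were lower. Of 15 mitochondrial chaperones and proteases, SPG7 rose and GRPEL2 fell with FOSL1sh3 and 0 were called with FOSL1sh10 (1 lower at an unadjusted p under 0.05 and 1 in DESeq2). The FOSL1sh3 counts are 6.67% of the 15 in each direction, where 5.21% of all genes rose and 5.65% fell, so they are near the background.

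Among 15 chaperones of the endoplasmic reticulum, which the naming rule leaves out, 4 fell with FOSL1sh3, where 5.65% of all genes fell. They were DNAJB11 (-1.12 ± 0.14, adjusted p = 8.52e-05, edgeR), HSPA5 (BiP, the HSP70 of that compartment; -0.75 ± 0.15, 0.00518), ERO1A (-0.75 ± 0.20, 0.0229) and DNAJB9, which is named here after its value was seen. HSPA5 was at 252, 236 and 266 CPM in GFPsh, at 131, 179 and 138 in FOSL1sh3 and at 258, 309 and 354 in FOSL1sh10. With FOSL1sh10 edgeR and DESeq2 called 0 of the 15, with 1 higher at an unadjusted p under 0.05. Between the hairpins 7 of the 15 differed, all lower in FOSL1sh3, where 6.99% of all genes were lower.

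Of 23 tested genes listed as targets of heat shock factors, among them the member BAG3, 3 rose and 3 fell with FOSL1sh3, and 2 rose and 1 fell with FOSL1sh10. The list shares CHORDC1, which fell with FOSL1sh3, and FKBP4, STIP1 and AHSA1 with the HSP90 co-chaperones above. The counts with FOSL1sh3 are 13% in each direction, where 5.21% of all genes rose and 5.65% fell. Those with FOSL1sh10 are 8.7% higher and 4.35% lower, where 3.13% of all genes rose and 2.15% fell. RGS2 fell with both (-1.82 ± 0.29, adjusted p = 0.00098, and -1.83 ± 0.29, 0.000754, edgeR), GADD45B rose with both (0.76 ± 0.14, 0.00237, and 0.51 ± 0.14, 0.0335), and FOS rose with FOSL1sh3 (1.91 ± 0.29, 0.000666). Several of these genes answer to other signals too. FOS also stands on the list of immediate early genes, and so do JUN and EGR1, named after their values were seen. The rises of FOS and EGR1 are therefore counted on both lists. Among the immediate early genes 3 of 12 rose with FOSL1sh3: FOS, EGR1 (0.94 ± 0.26, adjusted p = 0.0256, edgeR) and JUNB (1.15 ± 0.15, 0.000146). That is 25% of the 12, where 5.21% of all genes rose. With FOSL1sh10 KLF4 rose (1.03 ± 0.18, 0.00147) and KLF2 fell (-1.65 ± 0.24, 0.00028). Each is 8.33% of the 12, where 3.13% of all genes rose and 2.15% fell.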

How the data were processed

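RNA of 9 libraries was prepared with MARS-seq, per the labels' protocols, a low-input method that tags transcripts near the 3′ end. The submitters' processing notes name FastQC 0.11.5, STAR 2.5.3a, featureCounts 1.6.0 and the build hg38, and they also name edgeR and limma. The authors deposited whole-number counts per gene for each library, counted over exons with the GENCODE 28 annotation without a strand or multi-mapping option, per the file headers. Whether molecular identifiers were counted is not stated there, and count limits cover counting error only.

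The members and the other gene lists were chosen with earlier results of these data known. Genes were kept by edgeR's filterByExpr (minimum count 10, minimum total 15), scaled by TMM and fitted in 1 quasi-likelihood model over all 9 libraries with group as the only term (edgeR 4.0.16, R 4.3.3). The comparisons were each FOSL1 hairpin against GFPsh, the mean of both against GFPsh, and FOSL1sh3 against FOSL1sh10; the first 3 share the GFPsh libraries. P-values were adjusted by Benjamini-Hochberg over 12814 genes and called under 0.05; the SE is the log2 fold change over the root of F. The procedure was tested on simulated data. Library totals were 6893026 to 10604251, the common biological coefficient of variation was 16.4%, and no libraries were identical. Members named are those called in any comparison, the defining members of the families, the 10 highest in GFPsh and 5 on each side of the filter; from other lists, up to 4 called genes with the smallest p for the mean of both hairpins. GC content came from GENCODE 29, which holds 58261 of the 58381 gene IDs, and exon overlap from the exons listed with the deposited counts. Alternatives were library totals alone, DESeq2 1.42.0, no low-count filter, only the groups compared, the replicate number as a block, each library left out, and, added after seeing the data, removal of the trend on GC content and length.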

Additional observations from a re-analysis of the deposited data

Results flagged for a closer look

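The hairpins differed from each other, by the direct test of FOSL1sh3 against FOSL1sh10 in edgeR, for 10 members, and these are the results a reader may look at again. The log2 difference (FOSL1sh3 minus FOSL1sh10) was 0.65 for BAG1 (adjusted p = 0.00515). It was negative for the other 9, of which 8 were: -0.98 for HSPA14 (0.00627), -0.72 for HSPB1 (0.00297), -0.68 for CCT4 (0.0134), -0.46 for DNAJB6 (0.0266), -0.44 for DNAJA1 (0.0351), -0.67 for DNAJC25 (0.0414), -0.43 for DNAJC21 (0.0422) and -0.56 for TCP1 (0.0476). The ninth, HSPA12A at -1.47 (0.0304), passed the expression filter only through the FOSL1sh10 libraries, where it is high, and its call was lost in DESeq2 (0.0727) and in 6 of 9 fits without a library, so it is a description. FOSL1 itself fell by similar amounts with both hairpins, by 1.98 and 1.94 on the log2 scale. Groups of 3 libraries were too small to test whether a library stands apart.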

How the results depend on the processing

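The direction of all 30 called pairs of member and comparison held in all 445 alternative values, 314 of which also stayed called and 131 of which did not, and 8 pairs were called under every alternative run. With FOSL1sh3, 12 members were called, 8 to 12 without single libraries and 6 with the GC and length trend removed. With FOSL1sh10 the count of 3 (3 higher, 0 lower) became 6 with no low-count filter (2 higher, 4 lower) and 6 with only the groups compared (3 and 3), was 3 higher and 1 lower in DESeq2, and ran from 1 to 5 without single libraries. For the mean of both hairpins the count of 5 became 11 in DESeq2, 9 with no low-count filter and 1 with the trend removed, and ran from 0 to 10 without single libraries; a fit of only the groups compared was not run. Between the hairpins the count of 10 became 18 on library totals (1 higher, 17 lower) and 5 with only the groups compared, and ran from 3 to 11 without single libraries. Same-numbered libraries of different groups had correlations of deviations of -0.116 to 0.183, 2 of 9 over 0.1. In 9 of 18 cases a library matched best with its own number in another group. These values do not settle whether replicate numbers pair the libraries. With the replicate block 13, 3, 6 and 12 members were called in the 4 comparisons, and DNAJB2 lost its call for the mean of both hairpins (0.0515). Of 59 alternative medians over the members 1 took the opposite sign, 0.06 against -0.05 for FOSL1sh10 on library totals. The share of member promoter windows with the repeat was 27.2% for 2 units and 6.80% for 3 units. Counts of 3 or fewer per library, the limit for a level of 0, leave the lowest members undecided. Of the alternatives, only DESeq2 was applied to the other gene lists.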
